A study of Mus musculus with 5 samples.

Results

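Non-dividing oligodendrocyte precursor cells (OPCs) were described in single-cell RNA sequencing of the hippocampus of newborn mice with and without Trem2, a receptor of microglia, the resident macrophages of the brain. By its title the study asked how microglial Trem2 bears on the energy metabolism of neurons during development. Both genotypes were studied at postnatal day 1: Trem2 knockout (KO, Trem2 -/-), with 2 libraries numbered 2 and 3, and wild type (WT, Trem2 +/+), with 3 libraries numbered 1 to 3. Each library pooled 2 pups; KO replicate 2 and WT replicate 2 came from 2 males, and the other libraries from 1 male and 1 female. The labels describe neither the knockout allele nor the mouse strain. Both groups share the tissue, the age, papain dissociation and droplet capture at the 3' end. The measured value was the number of unique molecular identifiers (UMIs, each standing for 1 captured RNA molecule) per gene and cell.

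The OPCs were picked by their own RNA. A barcode was kept if it had 500 or more genes, 1000 or more UMIs and no more than 15% of its UMIs from mitochondrial genes. A kept cell counted as a non-dividing OPC if it had 1 or more UMIs of Pdgfra, 1 or more of Olig1, no more than 1 of Mki67 and Top2a together, no more than 1 of Col1a1 and Col1a2 together, and 0 of Neurod6. Of 30699 kept cells 628 met these conditions: 68 of 5601 and 77 of 5507 in the KO libraries, and 201 of 6365, 105 of 4716 and 177 of 8510 in the WT libraries. The levels of those 7 genes chose the cells, so they are described here and not tested. Cells that met the same conditions but had 2 or more UMIs of Mki67 and Top2a, the proliferation antigen and a topoisomerase of dividing cells, are called dividing OPCs and numbered 273. Astrocytes with Aqp4 and Slc1a3, no Pdgfra or Neurod6 and the same limits on division and collagen (2281 cells) and excitatory neurons with 2 or more UMIs of Neurod6 (10874 cells) served for comparison.

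OPCs arise from neural progenitors, spread through the brain and remain able to divide. Pdgfra, the receptor for platelet-derived growth factor, carries the signal that keeps them dividing and alive, while the transcription factors Olig1, Olig2 and Sox10 set and hold the lineage and Cspg4 encodes the surface proteoglycan NG2. On their way to oligodendrocytes, which wrap axons in myelin, they pass through a committed stage marked by the receptor Gpr17 and the genes Bcas1 and Enpp6 before they express the myelin proteins Mbp and Mog, and in the rodent hippocampus most of this follows after birth.

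The label held against the markers that the rule did not use. Olig2 was detected in 95.6% and 88.3% of OPCs in the KO libraries, against 92.0%, 99.0% and 93.8% in the WT libraries, and in at most 2.20% of Neurod6 neurons of any library. Cspg4 was detected in 80.9% and 79.2% of KO cells and in 77.6%, 92.4% and 85.3% of WT cells, against at most 1.34% of the neurons. Sox10, which is not among the markers given for the cells, was detected in 64.7% to 81.9% of OPCs per library and in at most 0.334% of neurons. Median depth per cell was 6686 to 8261 UMIs in the OPCs and 9179 to 11910 in the neurons, so the low shares in neurons did not come with shallower cells.

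At the limits of the rule the cells changed in steps of different size. The 67 members with a single Pdgfra UMI had Olig2 in 86.6% and Cspg4 in 38.8% of cells, while the 561 members with 2 or more had 94.5% and 88.1%. Just outside, 1817 cells with Olig1 and no Pdgfra had Olig2 in 52.5%, Sox10 in 2.37% and the astroglial transporter Slc1a3 in 91.9%. The 67 cells with Pdgfra and no Olig1 had Sox10 in 1.49%, against 40.0% of the 20 members with a single Olig1 UMI. The limit on Neurod6 cut through like cells: the 138 cells excluded by a single Neurod6 UMI had Olig2 in 95.7%, Cspg4 in 81.9% and Sox10 in 68.8%, close to the 93.6%, 82.8% and 72.0% of the members. Of the members 552 had no UMI of Mki67 or Top2a and 76 had 1, and 34 dividing OPCs stood just outside with 2; 12 members had 1 collagen UMI, and no cell had 2.

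The libraries held 6512 to 10582 barcodes and 60024793 to 91205882 UMIs each, and the OPCs together gave 490399 and 619406 UMIs in KO and 1522507, 889615 and 1238594 in WT. Between any pair of libraries 12 to 26 barcodes were shared, 8 to 21 of them among kept cells and 0 among OPCs. Genes of other cell types were present to different degrees in the summed OPCs. The 8 genes shared by all neurons summed to 1240 and 1277 CPM (UMIs scaled to a common library total) in KO and 1287, 1184 and 1310 CPM in WT, against 3653 to 5556 CPM in the other kept cells, and 63 and 70 KO cells and 188, 104 and 166 WT cells held 3 or more of these UMIs. The 10 genes of radial glia and astrocytes summed to 1283 and 2139 CPM in KO and 1697, 1151 and 1620 CPM in WT, also in most cells. The fibroblast genes summed to 141 to 179 CPM, with 3 or more UMIs in 11 to 24 cells per library. Most other lists were lower. The 12 microglial genes summed to 518 CPM in KO replicate 2 and 11.3 CPM in KO replicate 3, against 16.9 to 25.6 CPM in WT. In KO replicate 2, P2ry12 and Tmem119 were at 0 and the other 10 were detected; 2 and 0 KO cells and 2, 1 and 0 WT cells held 3 or more of these UMIs. The 5 choroid plexus genes summed to 1460 CPM in WT replicate 3, in which 2 cells held 3 or more, and to 10.2 and 11.3 CPM in KO and 17.1 and 19.1 CPM in the other WT libraries. Inhibitory neuron genes, all 8 of them detected in both KO libraries, summed to 83.6 and 110 CPM in KO and 33.5, 20.2 and 58.9 CPM in WT. In all, 5 and 5 KO cells and 9, 8 and 11 WT cells held 3 or more UMIs of a list for excitatory neurons, inhibitory neurons, microglia, endothelium or red blood cells, and results are also given without them.

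Lineage and surface genes led the OPCs against all other kept cells. Among 3481 genes with a mean of 50 or more UMIs per library in OPCs, 252 were more than 2-fold and 35 more than 8-fold above the other cells in every library. Because the choice of cells by Pdgfra and Olig1 fixes this contrast, the ratios are a description. Ranked by the lowest log2 ratio over the 5 libraries, the leading gene outside the rule was Lhfpl3, a tetraspan membrane protein gene, at 734 and 788 CPM in KO and 786, 660 and 952 CPM in WT, with log2 ratios of 5.18 to 5.82. Sox10 followed with 188 and 203 CPM in KO and 210, 227 and 194 CPM in WT, and ratios of 4.75 to 5.96. Its level varied little between libraries, and the groups overlapped.

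The other leading genes fell into 3 kinds by what they are known to do. Surface and matrix genes were Cspg4 (log2 ratios of 4.10 to 4.75), the matrilin Matn4 (4.28 to 5.36), the secreted synaptic ligand C1ql1 (3.80 to 4.42) and the protocadherin Pcdh11x (3.74 to 4.39). Genes of myelin lipids and membranes were already present, among them the enzymes Gal3st1 and Ugt8a, which together make sulfatide, and the proteolipid Pllp. Gal3st1 stood at 73.4 and 75.9 CPM in KO and 82.8, 57.3 and 79.1 CPM in WT, and Ugt8a at 46.9 and 77.5 CPM in KO and 54.5, 50.6 and 67.0 CPM in WT. Signalling and transcription genes were Gpr17 (4.48 to 5.97), Nkx2-2 (3.74 to 4.15), the kinases Prkcq (4.36 to 5.02) and Stk32a, and the ubiquitin ligase Lnx1. Pnlip, Bcas1, Vxn and 2810468N07Rik completed the 20, together with Pdgfra and Olig1 of the rule. The ranking was against all other kept cells and does not set these cells apart from dividing OPCs. Log2 ratios of non-dividing over dividing OPCs were -0.65 to -0.04 for Stk32a, -0.70 to 0.37 for Nkx2-2 and -0.11 to 0.33 for Prkcq. For Gal3st1 and Lnx1 they were 0.13 to 1.44 and 0.58 to 1.10.

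**Figure D1:**
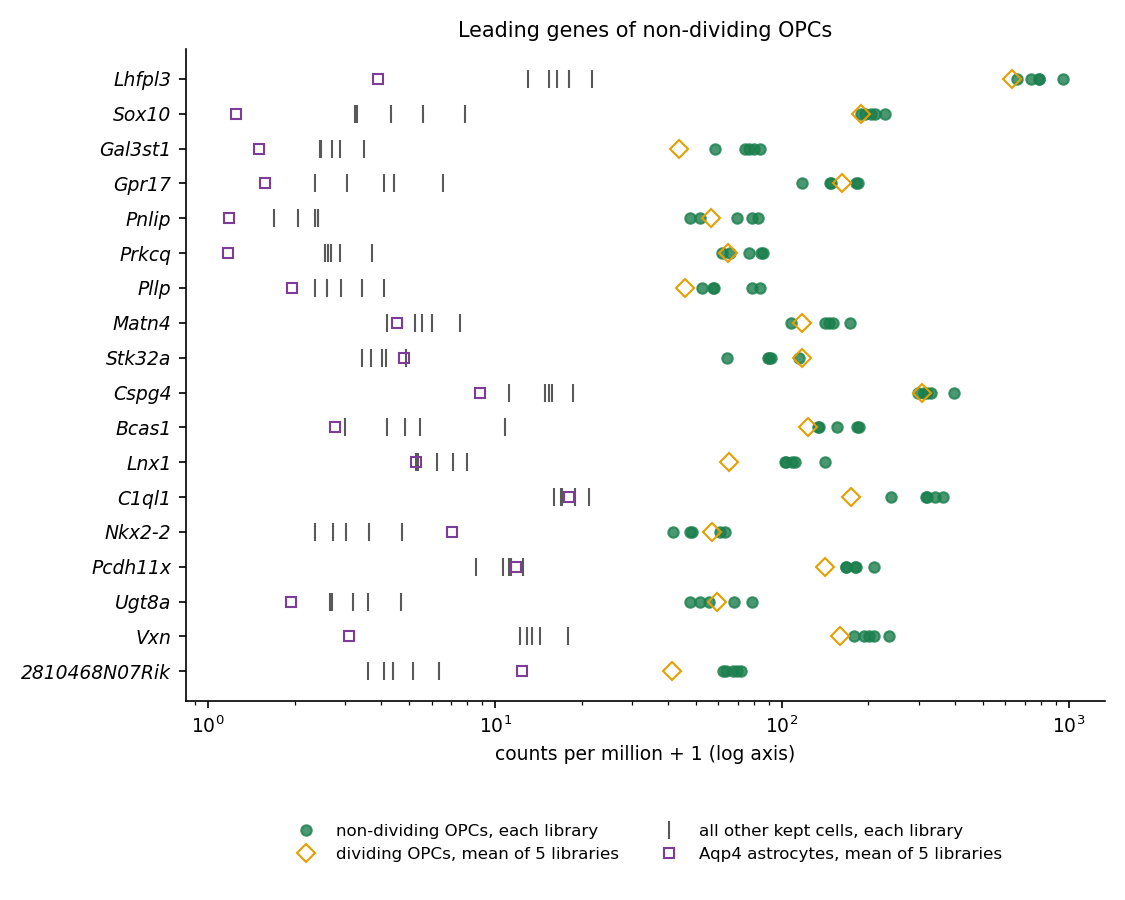
Level of the 18 leading genes outside the rule, in CPM plus 1 on a log axis, in non-dividing OPCs (filled circles, each of 5 libraries), dividing OPCs (open diamonds, mean), Aqp4 astrocytes (open squares, mean) and all other kept cells (bars, each library). Lhfpl3 lay at 660 to 952 CPM in OPCs, and for every gene shown the OPC libraries lay to the right of all other kept cells.

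By stage, the cells carried precursor genes, part of the committed stage and almost no myelin program. To compare cells at one depth, each cell was thinned to 2000 UMIs, which left 618 OPCs and dropped 10 shallower ones. Gpr17, the receptor of committed precursors, was then found in 33.3% and 18.7% of KO cells and in 26.4%, 24.8% and 28.6% of WT cells (unthinned 60.3% and 46.8% in KO, and 53.2%, 59.1% and 58.8% in WT). Bcas1 was found in 28.8% and 21.3% of thinned KO cells and in 13.3% to 24.9% of WT cells per library. Both exceeded their share in neurons, at most 0.0829% for Gpr17 and 0.194% for Bcas1. Neither was particular to the non-dividing cells. Gpr17 stood at 110 to 189 CPM in dividing OPCs, with log2 ratios of non-dividing over dividing cells from -0.70 to 0.41. Bcas1 stood at 90.3 to 145 CPM in dividing OPCs, with log2 ratios of 0.08 to 0.77. Enpp6, Neu4 and Bmp4, also genes of the committed stage, were at or near 0. Enpp6 had no UMI in any library. Neu4 and Bmp4 reached at most 4.84 and 8.07 CPM, where 3 UMIs are worth 1.97 to 6.12 CPM.

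Among the myelin genes Cnp, an enzyme that OPCs already make, stood at 129 and 93.6 CPM in KO and 132, 92.2 and 122 CPM in WT. Mbp stood at 12.2 and 38.8 CPM in KO and 29.6, 37.1 and 26.6 CPM in WT. Thinned, Mbp was found in 3.03% and 9.33% of KO cells and 5.08%, 8.57% and 5.14% of WT cells, against at most 2.67% of neurons. Mobp and Opalin, of mature oligodendrocytes, had no UMI in the OPCs of any library, and Mog and Mag reached at most 1.12 and 0.807 CPM.

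Genes of earlier progenitors were present beside these. The Notch ligand Dll3 was found in 18.2% and 10.7% of thinned KO cells and 15.2%, 10.5% and 14.9% of WT cells. Egfr, the receptor for epidermal growth factor, was found in 4.55% and 5.33% of KO cells and 6.09%, 1.90% and 5.71% of WT cells. Fabp7, a fatty acid binding protein of radial glia and young glia, was found in 98.5% or more of the thinned cells of each library, against at most 25.8% of neurons.

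**Figure D2:**
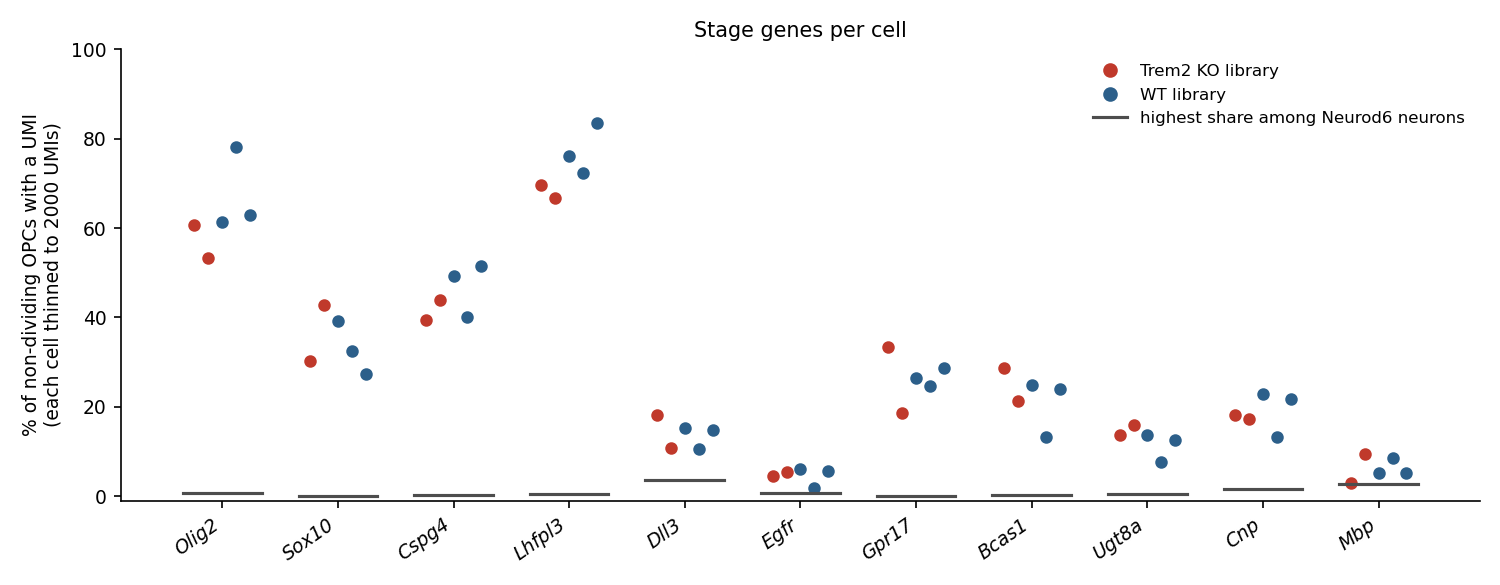
Share of non-dividing OPCs with at least 1 UMI of each stage gene after thinning every cell to 2000 UMIs, in 2 Trem2 KO and 3 WT libraries, with the highest share among Neurod6 neurons of any library as a line. Olig2 was found in 53.3% to 78.1% of cells and Gpr17 in 18.7% to 33.3%, while Mbp lay at 3.03% to 9.33%, against at most 2.67% of neurons.

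Within the OPCs, early and committed genes were not spread alike over cells. Gpr17 was found in 16.1% of the 87 thinned cells with Dll3 and in 28.3% of the 531 without. In KO replicate 2 it was 8.33% against 38.9%, while KO replicate 3 went the other way, with 2 of 8 cells against 17.9%. In the WT libraries it was 23.3% against 26.9%, 9.09% against 26.6% and 11.5% against 31.5%, so the share was lower beside Dll3 in 4 of 5 libraries. Cells with Egfr had Gpr17 in 12.9%, against 27.3% of those without. Sox10 did not follow that order over all cells, since Gpr17 was found in 30.3% of cells with Sox10 and 24.6% of cells without. These shares are descriptions over cells that share libraries, and the counts are small: 14 cells held both Dll3 and Gpr17.

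Set beside dividing OPCs, the non-dividing cells held Sox10 at a like level. Sox10 ranged from 188 to 227 CPM in non-dividing and from 179 to 203 CPM in dividing OPCs. C1ql1 was higher in non-dividing cells of every library, at 238 to 363 CPM against 102 to 220 CPM, with log2 ratios of 0.63 to 1.21. Epn2 (0.20 to 1.05), Xylt1 (0.33 to 0.88), an enzyme that starts proteoglycan sugar chains, and Dll3 (0.26 to 1.35) were also higher in each library. That direction was not particular to them: Smoc1 (0.82 to 1.10) and Serpine2 (0.16 to 0.48) shared it. Stk32a (-0.65 to -0.04) and Sapcd2 (-1.08 to -0.46) went the other way. The share of all genes with either direction was not counted. Cldn11, a tight junction gene of myelin, was lower, at 0 to 6.74 CPM against 10.8 to 28.8 CPM, and so was Tcf7l2, a Wnt pathway factor, by log2 ratios of -0.72 to -0.16. The Cldn11 levels rest on few counts, with a mean of 3.4 UMIs per library in the non-dividing OPCs. The dividing cells were deeper, with medians of 9670 to 11330 UMIs per cell, and the rule set this contrast, so no test was made.

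Against Aqp4 astrocytes, the other glial class, OPCs held progenitor and astroglial genes at lower level, and some of these were scarce. Hes5, a Notch target, stood at 230 to 432 CPM in OPCs and 1242 to 1656 CPM in astrocytes. Tnc, a matrix glycoprotein of astroglia, stood at 6.74 to 64.4 CPM in OPCs and 428 to 639 CPM in astrocytes. It was detected in 1.9% to 9.5% of OPCs per library. Ncan was lower in OPCs of each library by log2 ratios of -2.93 to -1.84, Btg2 by -4.13 to -2.35 and Fabp7 by -1.66 to -1.23. Tnc and Btg2 were also lower in OPCs than in all other kept cells (log2 ratios of -3.75 to -0.36 and -2.28 to -0.13). The matrix genes Ptprz1 and Bcan, often used to mark OPCs, were lower in OPCs than in these astrocytes (log2 ratios of -0.67 to -0.39 and -0.58 to -0.28). Sox10 was at most 0.905 CPM in the astrocytes. The 2 classes were cut by different marker genes, and this too is a description.

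The share of cells that were non-dividing OPCs was lower in both KO libraries than in every WT library. It was 1.21% (95% exact binomial interval 0.944 to 1.54) and 1.40% (1.11 to 1.74) in KO, against 3.16% (2.74 to 3.62), 2.23% (1.83 to 2.69) and 2.08% (1.79 to 2.41) in WT; the intervals cover counting error only. The groups did not overlap, with 1.31% ± 0.130 (SD, n = 2) in KO and 2.49% ± 0.585 (SD, n = 3) in WT, a difference of -1.18 percentage points. A two-sided exact permutation test gave p = 0.1, the smallest p that 10 assignments of libraries allow, so this design cannot reach 0.05. Counting the cells with a single Neurod6 UMI as well gave 1.61% and 1.67% in KO and 3.68%, 2.86% and 2.53% in WT.

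A share depends on the other cells in the library, and fewer OPCs and more of the others cannot be told apart by it. Neurod6 neurons made up 43.4% and 38.0% of cells in KO and 28.2%, 31.8% and 36.0% in WT (difference 8.68 percentage points, exact permutation p = 0.2). Leaving these neurons out of the total, OPCs were 2.14% and 2.25% of the remaining cells in KO and 4.40%, 3.26% and 3.25% in WT. The difference was -1.44 points (exact permutation p = 0.1). As a ratio KO was then 0.6045 times WT, closer than the 0.525 times found for the share of all cells. The share of Aqp4 astrocytes was 5.16% and 6.08% in KO, against 11.5%, 6.87% and 7.07% in WT (exact permutation p = 0.3). Per 100 of these astrocytes there were 23.5 and 23.0 OPCs in KO and 27.5, 32.4 and 29.4 OPCs in WT, a smaller gap without overlap (0.781 times, exact permutation p = 0.1). Without WT replicate 1, the library with the highest share, the difference in the share of all cells was -0.847 points.

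Division did not differ beyond the spread between libraries. Dividing cells were 32.7% and 30.6% of all OPCs in KO and 33.0%, 21.6% and 30.6% in WT, and WT replicate 2 was the low one. The means were 31.6% ± 1.44 (SD, n = 2) in KO and 28.4% ± 5.98 (SD, n = 3) in WT (two-sided exact permutation p = 0.8). The difference was 3.24 percentage points, and -0.142 without WT replicate 2. Median depth was 7138 and 7595 UMIs per OPC in KO and 7405, 8261 and 6686 in WT (exact permutation p = 1).

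**Figure D3:**
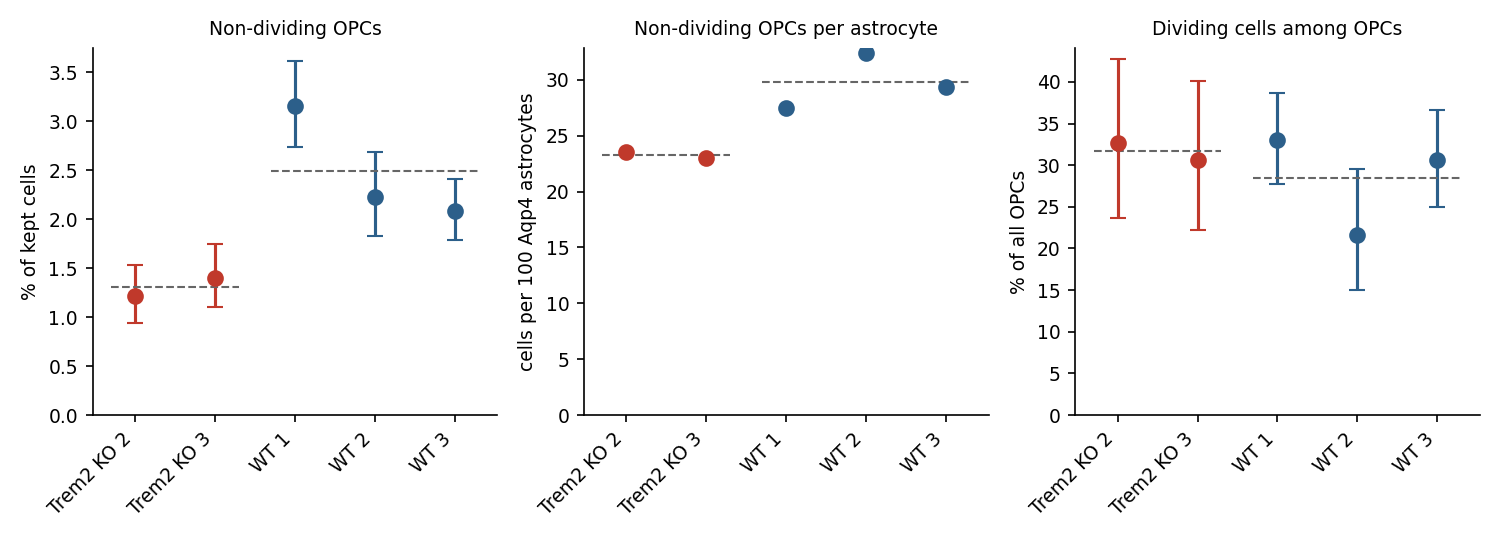
Left, non-dividing OPCs as a percentage of kept cells; middle, non-dividing OPCs per 100 Aqp4 astrocytes; right, dividing cells as a percentage of all OPCs, in 2 Trem2 KO and 3 WT libraries, with 95% exact binomial intervals (left and right) and group means (dashed). KO libraries lay at 1.21% and 1.40% of cells, below the WT libraries at 2.08% to 3.16%, and the dividing shares overlapped.

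Genotype changed 1 gene past the threshold in the non-dividing OPCs. Counts summed per library were tested with edgeR's quasi-likelihood test and Benjamini-Hochberg adjustment over 9268 genes, and 1 gene passed at an adjusted p under 0.05, which is 0.0108% of the genes tested; 373 had an unadjusted p under 0.05, 183 of them higher and 190 lower in KO. DESeq2 called 2 genes (0.0216%). The median log2 ratio of KO over WT across all genes was -0.0018, and the standard error of a gene was 0.28 in the median. The groups did not overlap for 20.5% of the genes, with KO above WT for 9.69% and below for 10.8%. Nothing in the labels says whether the pools of pups came from separate litters, and p-values measure the spread between these libraries.

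Trem2 itself (chromosome 17, 48346401 to 48354147, build mm10) gave 1 and 0 UMIs in the KO OPCs and 0, 1 and 1 in the WT OPCs. The single KO UMI lay in a cell that held markers of another cell type. These counts are too low to check the labels. Among the genes near Trem2, Mrps10, a mitochondrial ribosomal protein gene, stood at 69.3 and 85.6 CPM in KO and 55.8, 43.8 and 54.1 CPM in WT (log2 0.60, SE 0.21, adjusted p = 1.00 by edgeR).

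The gene that passed was Zfp36, which encodes tristetraprolin, a protein that binds AU-rich messenger RNAs and speeds their decay (chromosome 7, 28376784 to 28380253, mm10, where it overlaps the gene model Gm44710). It stood at 71.4 and 33.9 CPM in KO, against 9.20, 12.4 and 9.69 CPM in WT, a log2 ratio of 2.33 (SE 0.36, adjusted p = 0.0279 by edgeR; 0.0051 by DESeq2). Both KO libraries lay above all WT libraries, but few cells carried the UMIs. In KO replicate 2, 30 of 35 UMIs lay in cells that also held markers of another cell type, and 1 cell held 19. Aqp4 astrocytes held more Zfp36, at 147 to 232 CPM per library, with means of 190 CPM in KO and 191 CPM in WT. Astrocyte genes were not among the lists by which cells were left out. With the cells that held markers on those lists left out of all libraries, Zfp36 stood at 11.5 and 35.2 CPM in KO and 9.33, 12.7 and 7.13 CPM in WT. The log2 ratio of 1.38 no longer passed (adjusted p = 0.998 by edgeR). The call was also lost without KO replicate 2 (log2 1.71, adjusted p = 0.891 by edgeR), without WT replicate 1 (log2 2.25, adjusted p = 0.102) and without WT replicate 3 (log2 2.26, adjusted p = 0.170), where the ratio stayed close to 2.33, as well as with Pdgfra of 2 or more (log2 1.06) and with Olig2 or Cspg4 required (log2 1.45). Over all alternatives the adjusted p ranged from 5.62e-09, with no filter on low counts, to 1.00.

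The next genes by smallest p in each direction did not pass with edgeR, although DESeq2 called Meg3, and are given as values. H2-D1, a classical class I histocompatibility gene with close paralogs (chromosome 17, 35262730 to 35267499), stood at 89.7 and 80.7 CPM in KO and 34.8, 40.5 and 40.4 CPM in WT, a log2 ratio of 1.16 (SE 0.22, adjusted p = 0.0946 by edgeR). The KO libraries lay well above the WT libraries, and they still did at 73.6 and 82.8 CPM in KO, against 36.6, 44.4 and 42.8 CPM in WT, when cells with other markers were left out. Over the alternatives tried its log2 ratio ranged from 0.96 to 1.58 and its adjusted p from 0.000971 to 0.998 (edgeR, and DESeq2 for 1); it passed with no filter on low counts, the replicate block, a covariate for males in the pool and a mitochondrial limit of 5%. H2-D1 lies on the chromosome of Trem2. In astrocytes its log2 ratio was 0.68 and in dividing OPCs 0.24 (adjusted p of 1.00 in both, edgeR).

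Maf, a transcription factor made by macrophages and by some inhibitory neurons, stood at 42.8 and 33.9 CPM in KO and 5.91, 1.12 and 12.9 CPM in WT (log2 2.42, SE 0.46, adjusted p = 0.0946 by edgeR). Of its UMIs 20 of 21 in KO replicate 2 and 18 of 21 in KO replicate 3 lay in cells with markers of another type, and without those cells it stood at 2.30 and 5.29 CPM in KO and 5.74, 1.27 and 7.13 CPM in WT. Meg3, a long non-coding RNA that is abundant in neurons, stood at 710 and 807 CPM in KO and 447, 425 and 474 CPM in WT (log2 0.77, SE 0.15, adjusted p = 0.0946 by edgeR; 0.0051 by DESeq2). Without cells that held other markers its groups overlapped, at 356 and 573 CPM in KO and 267, 422 and 315 CPM in WT.

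On the lower side were Heatr3, which helps a ribosomal protein reach the nucleus, Acadsb, a mitochondrial enzyme that breaks down branched fatty acyl chains, and Acss2, which makes acetyl-CoA from acetate. Heatr3 stood at 12.2 and 17.8 CPM in KO and 34.8, 34.9 and 44.4 CPM in WT (log2 -1.30, SE 0.34). Acadsb stood at 22.4 and 17.8 CPM in KO and 51.2, 41.6 and 40.4 CPM in WT (log2 -1.16, SE 0.31). Acss2 had 0 and 2 UMIs in KO and 20, 11 and 19 UMIs in WT, and its fitted ratio rests on those few counts. The groups were apart for all 3 genes, and each had an adjusted p of 0.940 by edgeR. Acadsb overlaps Fgfr2 in the annotation, and the labels do not say how strand was used in counting.

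**Figure D4:**
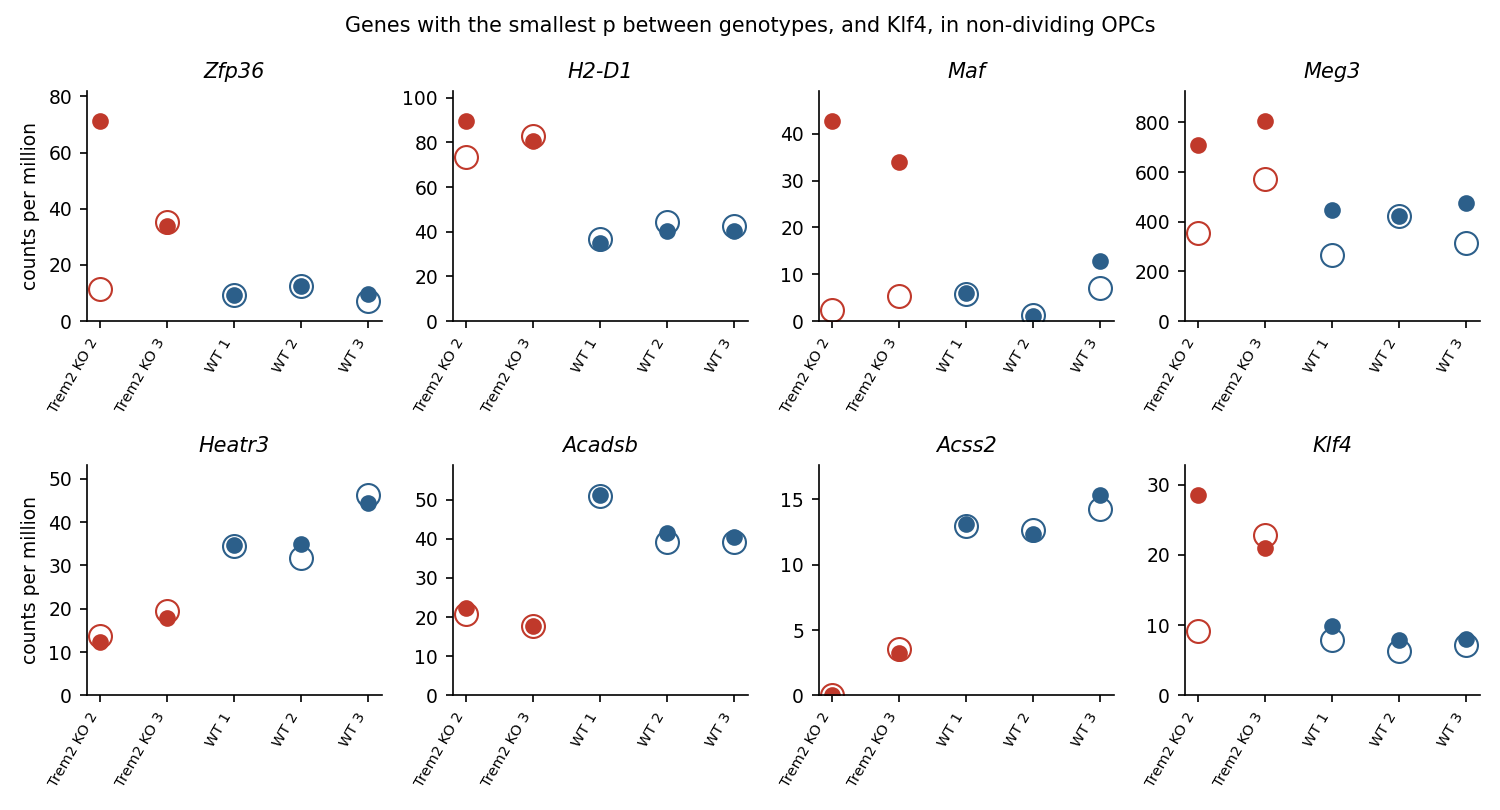
CPM in non-dividing OPCs of each Trem2 KO and WT library for the genes with the smallest p in each direction and for Klf4, with all cells (filled) and without cells that held other markers (open). Those cells held 3 or more UMIs of a list for excitatory neurons, inhibitory neurons, microglia, endothelium or red blood cells. Zfp36 in KO replicate 2 lay at 71.4 CPM with all cells and 11.5 CPM without those, while H2-D1 stayed at 73.6 and 82.8 CPM in KO.

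Genes that define the lineage did not pass in either direction. Of 12 tested lineage transcription factors 5 were higher and 7 lower in KO, with a median log2 ratio of -0.08. Zfp488, a repressor that promotes oligodendrocyte differentiation, had the smallest p, at 28.6 and 29.1 CPM in KO and 17.7, 16.9 and 9.69 CPM in WT (log2 0.97, SE 0.37, adjusted p = 1.00 by edgeR). Olig2 stood at 593 and 396 CPM in KO and 459, 658 and 439 CPM in WT (log2 -0.06, SE 0.21), and the groups overlapped. Of 18 surface and matrix genes 5 were higher and 13 lower (median -0.06), with Cspg4 at 298 and 312 CPM in KO and 319, 329 and 396 CPM in WT (log2 -0.18, SE 0.16).

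Early progenitor genes split 5 higher and 6 lower of 11, and committed precursor genes 5 higher and 4 lower of 9, with medians of -0.02 and 0.09. Gpr17, whose gene overlaps Lims2 on the other strand, stood at 147 and 116 CPM in KO and 146, 180 and 182 CPM in WT (log2 -0.36, SE 0.18, adjusted p = 1.00 by edgeR). Of 13 myelin genes 4 had enough counts to test and all 4 were lower in KO, none past the threshold. Without KO replicate 2 these split 2 higher and 2 lower. The levels of Mbp overlapped between the groups.

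Receptors and signalling genes also failed to pass. Of 12 growth factor receptors 4 were higher and 8 lower, with Erbb4, a neuregulin receptor, at 59.1 and 67.8 CPM in KO and 82.8, 70.8 and 90.4 CPM in WT (log2 -0.35, SE 0.21). Notch genes split 4 and 4 of 8, and Wnt feedback genes 3 and 3 of 6. Of 21 glutamate and GABA receptor subunits 11 were higher and 10 lower. The AMPA receptor subunit Gria1 stood at 22.4 and 46.8 CPM in KO and 17.1, 19.1 and 26.6 CPM in WT (log2 0.78, SE 0.34, unadjusted p = 0.0316, adjusted p = 1.00 by edgeR). Nor did any of the 20 cholesterol synthesis genes pass, 6 higher and 14 lower with a median of -0.13. Ebp, an isomerase of that pathway, stood at 10.2 and 19.4 CPM in KO and 33.5, 24.7 and 31.5 CPM in WT (log2 -0.98, SE 0.36), and Fdps, which makes farnesyl diphosphate, went the other way (log2 0.43, SE 0.17).

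Energy metabolism, the subject of the study's title, showed medians near the -0.0018 of all genes. Of 36 nuclear-encoded complex I subunits 17 were higher and 19 lower in KO (median -0.01), and all lay between -0.33 for Ndufa3 and 0.33 for Ndufa9. Complexes II to IV gave 8 higher and 17 lower of 25 (median -0.04), and ATP synthase 8 higher and 9 lower of 17 (median -0.01). Of the 13 mitochondrially encoded genes 8 were higher and 5 lower (median 0.06). They summed to 56380 and 52780 CPM in KO and 52940, 58350 and 39670 CPM in WT, where WT replicate 3 was the low one. Glycolysis gave 7 higher and 10 lower of 17 (median -0.02), and the tricarboxylic acid cycle 13 higher and 6 lower of 19 (median 0.05). None of these genes passed, and their fitted log2 ratios all lay between -0.52 and 0.33. Ribosomal protein genes gave 30 higher and 50 lower of 80 (median -0.01).

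Immediate early genes respond within minutes to signals and to tissue dissociation. Of 18 tested 17 were higher, with a median log2 ratio of 0.36, and 1, Zfp36, passed; of all genes tested 4607 were higher and 4661 lower. Klf4 stood at 28.55 and 20.99 CPM in KO and 9.85, 7.87 and 8.07 CPM in WT (log2 1.48, SE 0.41, adjusted p = 0.945 by edgeR). Ier3 stood at 145 CPM in KO replicate 2, while the other 4 libraries lay between 31.5 and 38.2 CPM. Fos stood at 351 and 765 CPM in KO and 443, 490 and 397 CPM in WT, with KO replicate 3 high and KO replicate 2 low. With cells that held other markers left out, 16 of 17 were higher (median 0.31) and 0 passed. After thinning to 2000 UMIs 11 could be tested, of which 7 were higher and 4 lower (median 0.28) and 0 passed. This list is named here after its values were known, its members share cells and libraries, and the part of dissociation in it was not tested.

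Heat shock genes had log2 ratios below 0 for 9 of 9 tested, with a median of -0.22 and none past the threshold. WT replicate 2 was the high library: Hsph1 stood at 104 and 71.0 CPM in KO and 74.9, 237 and 67.0 CPM in WT. Without it 6 of 9 were higher in KO and the median was 0.07. Replication and mitosis genes gave 3 higher and 12 lower of 15 (median -0.28), led by the replicative helicase subunits Mcm4 (log2 -0.83, SE 0.34) and Mcm3 (log2 -0.57, SE 0.27); Mcm4 stood at 20.4 and 35.5 CPM in KO and 44.7, 32.6 and 75.1 CPM in WT. Cdkn1c, an inhibitor of cyclin-dependent kinases that holds cells out of the cycle, stood at 46.9 and 59.7 CPM in KO and 34.2, 22.5 and 35.5 CPM in WT (log2 0.78, SE 0.26, unadjusted p = 0.0071, adjusted p = 1.00 by edgeR). Integrated stress response genes gave 9 higher and 4 lower of 13 (median 0.24), and without KO replicate 3 they gave 6 and 7 (median -0.02).

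**Figure D5:**
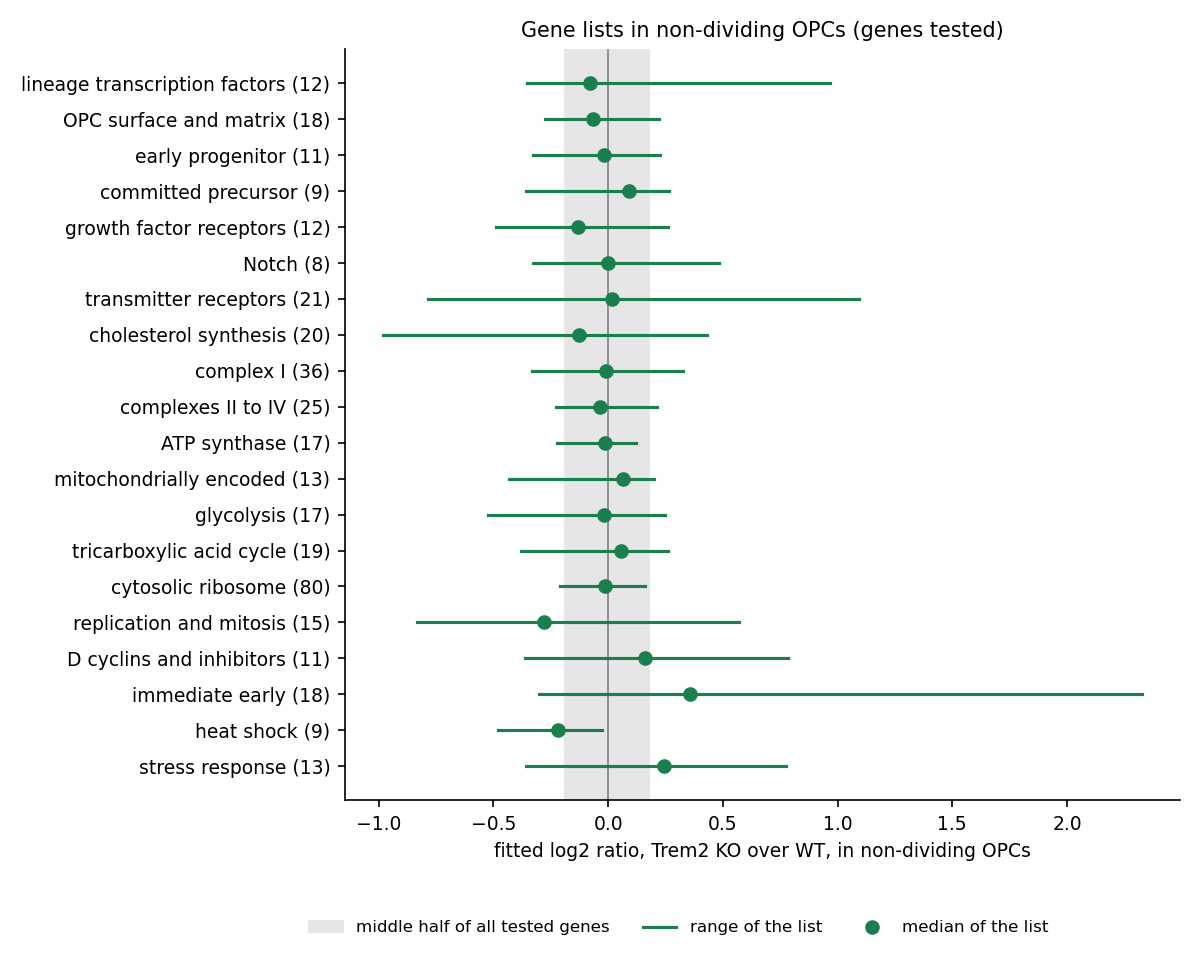
Fitted log2 ratio of Trem2 KO over WT in non-dividing OPCs for 20 gene lists, as the median (circle) and the range (line) of the genes tested, whose number stands in brackets, over the interquartile range of all genes tested (grey, -0.19 to 0.18). Immediate early genes had the highest median of these lists (0.36) and replication and mitosis genes the lowest (-0.28), and the respiratory chain lists lay near 0.

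Whether the genotype effect in non-dividing OPCs differed from that in dividing OPCs was tested by a term for that difference, in a fit that also held each library's own level. Of 9267 genes 8 passed (0.0863%; 468 had an unadjusted p under 0.05), all with a higher effect in the non-dividing cells. Dividing OPCs on their own gave 0 calls of 6549 genes (0%) with edgeR, 220 at an unadjusted p under 0.05. Of the 8, the macrophage genes Pf4, C1qa, Mrc1 and C1qb came from KO replicate 2, where 2 or 3 non-dividing OPCs held that library's UMIs of each. Among dividing OPCs these genes were at 0 in both KO libraries and averaged 5.25 to 8.02 CPM in WT. The neuronal genes Stmn2 and Meg3 were higher in KO among non-dividing cells (log2 0.45 and 0.77) and lower among dividing cells (-0.90 and -0.63), none of these 4 values past the threshold with edgeR. Stmn2, a regulator of microtubules in growing axons, stood at 306 and 252 CPM in KO and 212, 208 and 195 CPM in WT, and its difference in effect was 1.32 (SE 0.27, adjusted p = 0.0270 by edgeR). For Meg3 the difference in effect was 1.28 (SE 0.27, adjusted p = 0.0298 by edgeR). With cells that held other markers left out, the difference was 1.09 for Stmn2 and 0.82 for Meg3, and neither passed (adjusted p = 0.113 for each, edgeR). Without KO replicate 2, KO replicate 3 or WT replicate 2 neither gene passed, with differences of 1.09 to 1.44 for Stmn2 and 0.964 to 1.301 for Meg3.

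Xist, the RNA of the inactive X chromosome in females, had 0 UMIs in OPCs of KO replicate 2 and WT replicate 2, the libraries described as 2 males. In the mixed libraries it stood at 762 CPM in KO and 734 and 852 CPM in WT. The difference in its effect between non-dividing and dividing OPCs was 1.32 (SE 0.23, adjusted p = 0.0028 by edgeR), and rests on 1 KO and 2 WT libraries. It was 1.03 without WT replicate 1 (adjusted p = 0.257 by edgeR), not past the threshold. Without KO replicate 3 the fit gave 0.46. The KO library then left had 0 Xist UMIs in OPCs, so that fit cannot test the difference. Against Aqp4 astrocytes, 0 of 12299 genes (0%) differed in genotype effect with edgeR, 502 at an unadjusted p under 0.05. Astrocytes on their own gave 0 calls of 12445 (0%), 187 at an unadjusted p under 0.05.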

How the data were processed

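The 5 droplet libraries of hippocampus were analysed, each from 2 pooled pups at postnatal day 1. The values deposited by the authors are counts of UMIs per gene and barcode, whole numbers without normalisation, for 32285 features. Cell Ranger 6.1 and build mm10 are named per the submitters' processing notes, and version 6.1.1 per the file headers. Not given in the sources used here are the annotation release and how cells were called. Positions come from GENCODE mouse release M21 on mm10, in which 32158 features matched.

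Cells were gated as stated in the results, and counts were summed per library and class. The test was edgeR's quasi-likelihood test (version 4.0.16) of genotype alone, after filterByExpr and TMM scaling, with Benjamini-Hochberg adjustment over all genes tested and a threshold of 0.05. The 7 genes of the gate stayed in the library sizes and out of the tests, as did Aqp4 and Slc1a3 in tests between classes, which held library, class and their interaction with genotype. The step was checked on simulated data. DESeq2 1.42.0 was an alternative. For shares, a two-sided exact permutation test used the 10 possible assignments of libraries to genotypes. Ratios between classes used CPM with 1 added. No doublet caller was run. In an alternative, cells were left out if they held 3 or more UMIs of a marker list of another type. The lists used were those for excitatory neurons, inhibitory neurons, microglia, endothelium and red blood cells. Lists for choroid plexus, fibroblasts, mural cells, astroglia and neurons of any kind were not used for this. Intervals and the floor of 3 UMIs cover counting error only.

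Named genes were the rule genes, the 4 markers, the 20 leading genes, Trem2, up to 8 genes per direction that passed, or the 3 with the smallest p where fewer than 3 did, and the list members with the smallest p. Fos, Mcm4 and the members given only to show a library that stood apart were chosen after their values were seen. The members and lists were chosen with earlier results of these data known. The labels' sex field gives male and female for every library, while their descriptions name 2 males for the libraries numbered 2; the descriptions were used. Some genes are not reported here.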

Additional observations from a re-analysis of the deposited data

Results flagged for a closer look

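For 8 genes the genotype effect differed between non-dividing and dividing OPCs in a test of the difference itself (edgeR, Benjamini-Hochberg adjustment). The log2 differences, non-dividing minus dividing, were 13.05 for Pf4, 12.73 for C1qa, 12.65 for Mrc1, 11.04 for C1qb, 3.25 for Zfp36, 1.32 for Xist, 1.32 for Stmn2 and 1.28 for Meg3. The values of the 4 macrophage genes are not bounds, because the dividing cells of KO were at 0 for them and the fitted size depends on the prior count. Pf4 gave 158 and 0 UMIs in KO and 2, 0 and 2 UMIs in WT among non-dividing OPCs, and all 158 lay in cells with markers of another cell type. With such cells left out of both classes 4 genes passed, of which Xist was the only 1 shared with the 8. The Xist difference did not pass without WT replicate 1 (1.03). Without KO replicate 3 the fit gave 0.46, but the KO library then left had 0 Xist UMIs in OPCs and cannot test it.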

How the results depend on the processing

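The lower OPC share in KO kept its direction under every alternative tried, from -0.77 percentage points at a mitochondrial limit of 5% to -1.61 with dividing OPCs counted too. That last count takes in more cells. Its ratio of KO over WT was 0.543, against 0.525 in the main count, and its exact permutation p was 0.2. Leaving out 1 library gave differences of -1.39 to -0.85. The difference in the dividing share turned to -0.667 at 4 or more UMIs of Mki67 and Top2a, and leaving out 1 library gave -0.142 to 5.54. The difference in median UMIs per OPC turned to 82.7 with Pdgfra of 2 or more, and leaving out 1 library gave -467 to 321.

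The 1 gene called between genotypes in OPCs became 2 with DESeq2, 44 with no filter on low counts, 8 with a covariate for males in the pool, 5 at a mitochondrial limit of 5%, 2 with a single Neurod6 UMI allowed, and 0 with Pdgfra of 2 or more, with Olig2 or Cspg4 as well, with other cell types left out and after thinning to 2000 UMIs. Leaving out 1 library gave 0 to 23 calls, with 5 without KO replicate 2, 23 without KO replicate 3 and 0 without WT replicate 1 or WT replicate 3. The causes were not tested. The other denominators, the count that takes in dividing OPCs, the Neurod6 limit and the removal of other types from the tests of a difference in effect were chosen after seeing the data.

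With the replicate number as a block 26 genes were called, 1 of them shared. The numbers are not shown to pair the libraries: only 2 are shared, with correlations of deviations of 0.169 for number 2 and 0.124 for number 3. The deviations of the 2 KO libraries mirror each other, so KO replicate 3 gave -0.169 with WT replicate 2. These correlations are therefore not independent checks. The shared numbers also go with the sex of the pools, and WT replicate 1 had no KO library of its number. The 8 genes whose effect differed from dividing OPCs became 4 with other cell types left out and 4 to 16 without 1 library, and the 0 against astrocytes became 0 to 21. With 68 and 77 KO cells, genes under about 6.12 CPM fall below 3 UMIs in the smallest library.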
